A study of Mus musculus with 2 samples.

Results

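The 8 genes described here encode parts of the killing machinery of cytotoxic lymphocytes and were taken by name from the 25943 genes of the series. They are the granzyme genes Gzma and Gzmb, the perforin gene Prf1, the granule membrane gene Nkg7, the receptor genes Klrd1, Klre1 and Ncr1, and the chemokine gene Ccl5. The cells were unsorted bone marrow, flushed from the tibias and femurs of male WT mice aged 8 to 10 weeks and treated with red blood cell lysis buffer. 1 library came from mice after MCAO (middle cerebral artery occlusion, a stroke model in which an artery feeding the brain is blocked) and 1 library was a control. How many mice were pooled into a library, how long after MCAO the marrow was taken and whether control mice had sham surgery are not stated in the labels. The series set marrow after stroke against control marrow, and the question followed here is in which marrow cells the killing genes were read and whether the libraries differed.

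Natural killer (NK) cells and cytotoxic T cells kill by emptying granules onto a target cell. Perforin opens the target membrane and granzymes, which are proteases, enter and start cell death. Receptors on the killer cell decide whether the granules are released: Klrd1 (CD94) pairs with NKG2 chains and reads a nonclassical MHC molecule, Klre1 is a lectin-like receptor that pairs with Klri1 or Klri2, and Ncr1 (NKp46) is an activating receptor and a classical marker of NK cells. Ccl5 (RANTES) is a chemokine that memory T cells and NK cells release and that draws other leukocytes.

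Per the GENCODE M21 annotation of GRCm38 (mm10), all 8 genes are protein coding and none overlaps another gene. Klre1 (chr6:129577905-129585827, plus strand) and Klrd1 (chr6:129591782-129598775, plus strand) lie in the NK gene complex, 5955 bases apart with 0 annotated protein-coding genes between them. Gzma lies at chr13:113093825-113100981 (minus strand), Gzmb at chr14:56258838-56262260 (minus strand), Prf1 at chr10:61297833-61304680 (plus strand), Nkg7 at chr7:43437073-43438249 (plus strand), Ncr1 at chr7:4337724-4345164 (plus strand) and Ccl5 at chr11:83525778-83530518 (minus strand). RefSeq promoter windows (GRCm38.p6) matched 6 of the 8 genes, and no entry matched Klrd1 or Ccl5. The 250 bases before the start were searched on both strands for 3 short motifs of 7 letters that killer lymphocyte factors are known to bind: RUNX (TGTGGTT or AACCACA), T-box (TCACACC or GGTGTGA) and ETS (AGGAAGT or ACTTCCT). Windows are printed for the 2 granzyme genes and Ncr1, which each held a RUNX match, and for Prf1, which held none but held 2 ETS matches. Capitals mark the matches, and each window reads 5′ to 3′ on the strand of its gene: Gzma chr13:113100982-113101231 (minus), Gzmb chr14:56262335-56262584 (minus), Ncr1 chr7:4337465-4337714 (plus) and Prf1 chr10:61297586-61297835 (plus).
Gzma: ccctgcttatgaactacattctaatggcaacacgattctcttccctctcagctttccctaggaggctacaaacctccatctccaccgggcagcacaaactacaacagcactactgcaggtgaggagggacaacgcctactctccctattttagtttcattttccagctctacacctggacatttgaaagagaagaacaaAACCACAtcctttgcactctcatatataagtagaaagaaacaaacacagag
Gzmb: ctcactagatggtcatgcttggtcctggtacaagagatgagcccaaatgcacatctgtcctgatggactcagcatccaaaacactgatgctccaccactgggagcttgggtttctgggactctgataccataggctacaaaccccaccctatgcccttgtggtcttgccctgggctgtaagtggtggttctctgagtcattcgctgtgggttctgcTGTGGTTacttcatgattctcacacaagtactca
Ncr1: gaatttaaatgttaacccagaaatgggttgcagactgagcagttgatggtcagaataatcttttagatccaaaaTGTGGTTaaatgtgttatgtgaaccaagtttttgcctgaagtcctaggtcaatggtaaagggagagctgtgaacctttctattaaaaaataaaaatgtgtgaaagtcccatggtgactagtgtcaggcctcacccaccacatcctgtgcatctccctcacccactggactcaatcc
Prf1: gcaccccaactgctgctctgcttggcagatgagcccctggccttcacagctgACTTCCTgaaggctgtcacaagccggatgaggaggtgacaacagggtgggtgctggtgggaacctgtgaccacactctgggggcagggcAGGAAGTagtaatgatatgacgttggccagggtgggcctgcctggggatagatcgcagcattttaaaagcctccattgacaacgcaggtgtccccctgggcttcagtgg

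Distances are counted from the RefSeq start, which can differ from the GENCODE start given above. The RUNX match began 51 bases before the start of Gzma, 34 bases before that of Gzmb and 176 bases before that of Ncr1. The RefSeq start of Gzmb lies upstream of its GENCODE start at 56262260. A RUNX match was also held by 1 of the 2 windows of Klre1, 229 bases before that start. RUNX letters stood in 4.40% of all 32851 promoter windows of the same length, ETS letters in 7.69% and T-box letters in 3.33%. Nkg7 held the only T-box match among the 6 genes, 13 bases before its RefSeq start. The windows of that match (chr7:43436888-43437137) and of the Klre1 match (chr6:129577963-129578212) reach past the GENCODE starts of 43437073 and 129577905. Both matches thus lie inside the genes as GENCODE places them. These matches describe the letters and are not evidence of binding.

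Depth, in unique molecular identifiers (UMIs, 1 per captured mRNA molecule), had a median of 4952 per cell over the 5398 MCAO cells and of 3344 over the 5212 control cells. Each condition has 1 library, so no difference between them has a replicate check, no p-value was computed, and the 95% intervals in brackets cover counting error only. Classes of cells were rebuilt by clustering without the 8 genes and named from marker genes that leave them out. NK-cell-like cells numbered 44 (0.815% [0.593 to 1.09]) in the MCAO library and 39 (0.748% [0.533 to 1.02]) in the control library. T-cell-like cells numbered 86 (1.59% [1.28 to 1.96]) and 88 (1.69% [1.36 to 2.08]), so neither share differed beyond counting error. These shares rest on unsorted marrow after red cell lysis. NK-cell-like cells were shallower in the MCAO library, at a median of 3313 against 5368 UMIs, although that library was deeper as a whole. T-cell-like medians were 3310 and 3353 UMIs. The 2 libraries share 5120 cell name endings. The endings are numbers of up to 5493 in the MCAO library and 5326 in the control library, not listed in running order. Over 1000 same-named pairs the median profile correlation was 0.355, and other pairs had 0.355 too.

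The classes were named from their marker genes, so the sums that follow describe the labels and do not test them. The 10 NK markers summed to 65.5 and 60.7 UMIs per 10000 in NK-cell-like cells of the MCAO and control libraries, against 23.7 and 20.4 in T-cell-like cells. The 9 T markers summed to 65.0 and 76.3 UMIs per 10000 in T-cell-like cells, against 6.48 and 5.41 in NK-cell-like cells, where Cd3e had 1 UMI in each library and Cd5 had 0. Trbc1, a T cell receptor constant gene, made up 65 of the 135 and 83 of the 144 T marker UMIs in NK-cell-like cells.

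A gene's level is given as its summed UMIs per 10000 UMIs of a class, and levels are compared between classes or libraries and not between genes. NK-cell-like cells, the 44 and 39 cells above, held most UMIs of Gzma, Gzmb, Prf1, Klre1 and Ncr1. Nkg7, Klrd1 and Ccl5 were the exceptions: T-cell-like cells held more Ccl5 UMIs than NK-cell-like cells, most Nkg7 UMIs lay in the granulocyte line of the MCAO library and 47.1% of them in that of the control library, and plasmacytoid and conventional dendritic cells together held 27.8% and 22.1% of Klrd1 UMIs. B-lineage-like cells, which should lack these genes, give the background. Their median depths were 2190 UMIs in the MCAO library and 2045 UMIs in the control library. Their levels ran from 0.00416 (Prf1 and Ncr1) to 0.171 (Nkg7) UMIs per 10000 in the MCAO library and from 0.00748 (Gzmb and Prf1) to 0.214 (Nkg7) in the control library.

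**Figure D1:**
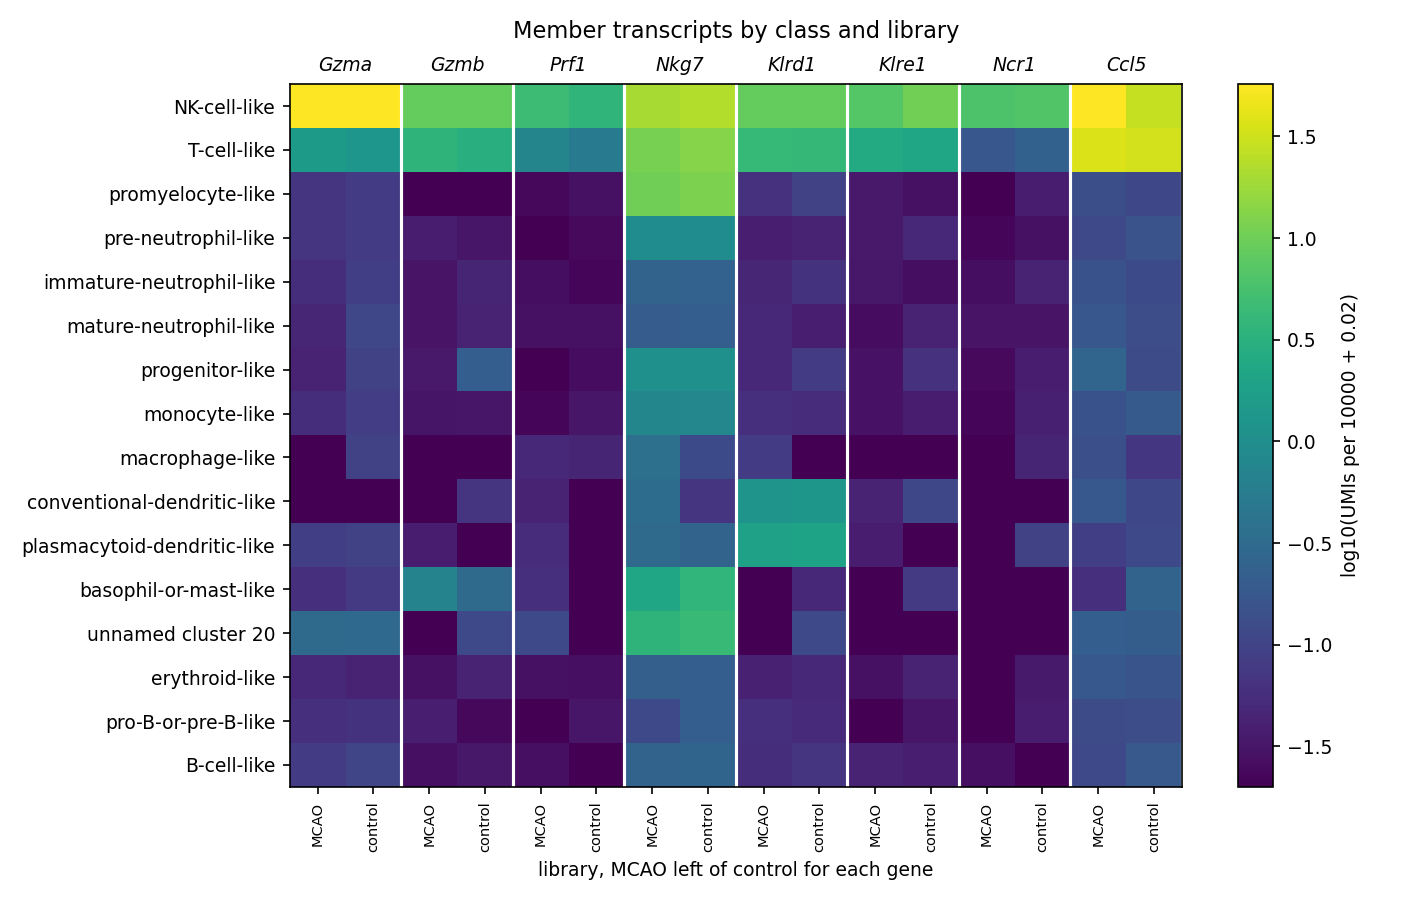
Levels of the 8 genes (columns, with the MCAO library left of the control library) in the 16 classes that had 20 or more cells in both libraries (one class per line), as log10 of UMIs per 10000 plus 0.02. The top line (NK-cell-like) is bright for all 8 genes, T-cell-like cells are dark for Ncr1, and the bright Nkg7 square of promyelocyte-like cells stands at 10.1 and 11.7 UMIs per 10000.

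**Figure D2:**
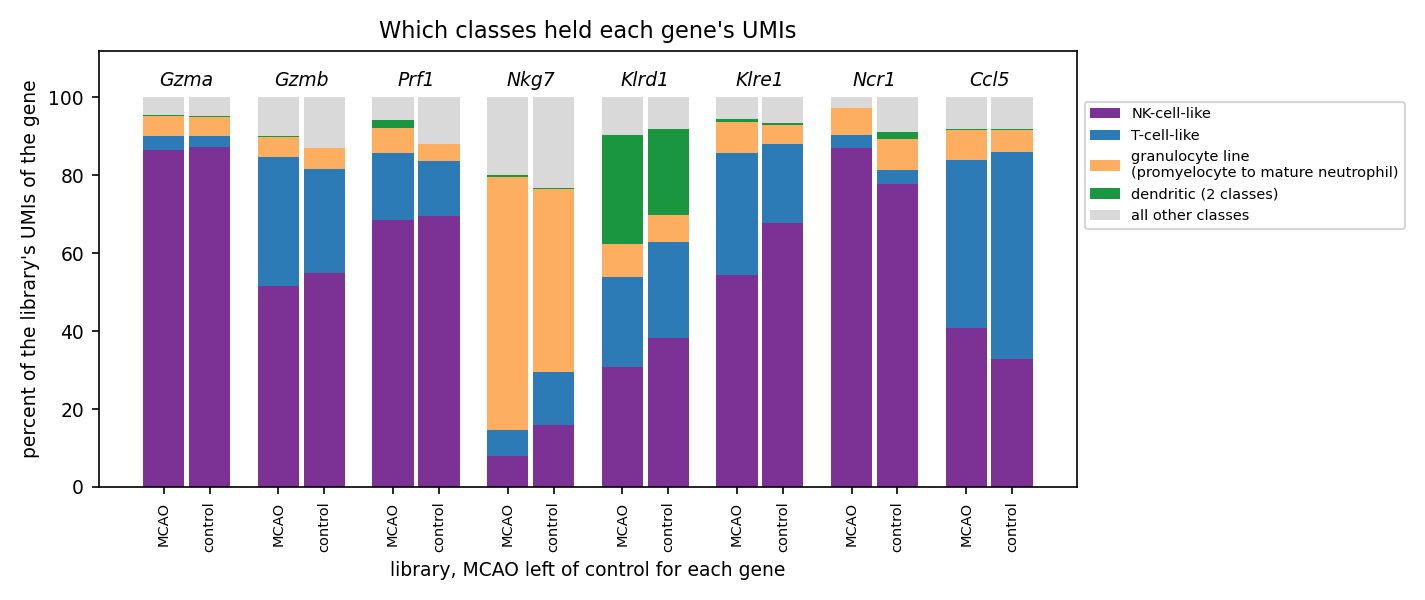
Percent of each gene's UMIs in a library that lay in NK-cell-like, T-cell-like, granulocyte-line (promyelocyte-like to mature-neutrophil-like), dendritic and all other classes. Purple (NK-cell-like) fills 86.6% and 87.3% of the Gzma bars in the MCAO and control libraries, and orange (granulocyte line) fills 65.0% and 47.1% of the Nkg7 bars.

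Gzma, a trypsin-like granzyme, was a granule gene largely confined to NK-cell-like cells. It had 1190 UMIs there in the MCAO library, a level of 57.1 [53.9 to 60.5] UMIs per 10000, and 1509 UMIs in the control library, a level of 56.7 [53.9 to 59.6]. It was read in 41 of 44 MCAO cells (93.2%) and 36 of 39 control cells (92.3%) of this class. NK-cell-like cells held 86.6% of all Gzma UMIs in the MCAO library and 87.3% in the control library. In T-cell-like cells Gzma was nearly a matter of single cells: 3 of 86 MCAO cells carried 49 UMIs, 34 of them in 1 cell, and 8 of 88 control cells carried 48 UMIs, with 16 and 12 in the top cells. Its background in B-lineage-like cells was 1.59% of cells in the MCAO library and 1.66% in the control library, against 3.49% [0.725 to 9.86] and 9.09% [4.01 to 17.1] of T-cell-like cells; thinned to 1000 UMIs per cell, the T-cell-like shares were 3.57% and 3.45%. Among the other classes of 20 or more cells, the highest Gzma level was that of unnamed cluster 20 (leading genes Prg2 and Epx), at 0.290 and 0.287 UMIs per 10000, from 3 UMIs in each library.

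Gzmb, which cleaves caspases and other substrates after aspartate, was shared between the lymphocyte classes. Its level in NK-cell-like cells was 8.73 [7.51 to 10.1] UMIs per 10000 in the MCAO library (182 UMIs, 34 of 44 cells) and 8.83 [7.73 to 10.03] in the control library (235 UMIs, 27 of 39 cells). In T-cell-like cells it was 3.53 [2.92 to 4.23] (116 UMIs, 17 of 86 cells) and 3.04 [2.51 to 3.65] (114 UMIs, 18 of 88 cells). Gzmb was uneven among NK-cell-like cells: 6 MCAO cells and 4 control cells held at least 50% of its UMIs. Beyond lymphocytes, basophil-or-mast-like cells had 17 Gzmb UMIs in 7 of 50 MCAO cells, a level of 0.674 [0.392 to 1.08], and 10 UMIs in 6 of 55 control cells, a level of 0.290 [0.139 to 0.533]. Both intervals lay above the B-lineage-like levels of 0.0125 and 0.00748. Progenitor-like cells of the control library held 32 Gzmb UMIs, of which 14 and 12 sat in 2 cells, while those of the MCAO library held 3.

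Prf1, the pore-forming protein without which granzymes do not reach the cytosol, was read at 4.61 [3.73 to 5.63] UMIs per 10000 in NK-cell-like cells of the MCAO library and 3.68 [2.99 to 4.49] in those of the control library (96 and 98 UMIs). T-cell-like cells had 24 UMIs, a level of 0.730 [0.468 to 1.09], in the MCAO library and 20 UMIs, a level of 0.534 [0.326 to 0.824], in the control library. NK-cell-like cells held 68.6% and 69.5% of all Prf1 UMIs. Outside NK-cell-like and T-cell-like cells Prf1 had 20 UMIs over 5268 MCAO cells and 23 UMIs over 5085 control cells.

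Nkg7, a granule membrane protein needed for full release of cytotoxic granules, had the broadest reach. Its level was 20.3 [18.4 to 22.3] UMIs per 10000 in NK-cell-like cells of the MCAO library and 22.6 [20.8 to 24.5] in those of the control library, and it was read in all 44 MCAO cells and in 37 of 39 control cells. T-cell-like cells had 10.99 [9.88 to 12.2] and 13.5 [12.4 to 14.7]. Promyelocyte-like cells, the stage that makes the primary granules of neutrophils (leading genes Elane, Mpo, Prtn3 and Ctsg), came close to T-cell-like cells: 10.1 [9.71 to 10.5] in the MCAO library, from 2873 UMIs in 153 of 161 cells, and 11.7 [11.1 to 12.3] in the control library, from 1377 UMIs in 66 of 70 cells. These levels were 0.917 times [0.822 to 1.03] and 0.867 times [0.782 to 0.962] those of T-cell-like cells, within counting error in the MCAO library and lower beyond it in the control library. The promyelocyte-like level was 59.0 times [43.4 to 82.5] the B-lineage-like level in the MCAO library and 54.6 times [43.9 to 68.7] in the control library. Median depths were 17173 and 15937 UMIs in promyelocyte-like cells, and 5.29% and 5.55% of B-lineage-like cells had an Nkg7 UMI. The reading was spread over cells, with per-cell medians of 8.41 and 10.1 UMIs per 10000 and top cells of 74 and 72 UMIs. Over the same promyelocyte-like cells Gzma had 14 and 7 UMIs in all, Prf1 had 1 in each library, and Ncr1 had 0 and 2.

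Along the granulocyte line the Nkg7 level was lower in later stages, with intervals that overlapped between the immature and mature ones. It was 0.943 [0.852 to 1.04] and 0.952 [0.833 to 1.08] UMIs per 10000 in pre-neutrophil-like cells of the MCAO and control libraries, 0.231 and 0.223 in immature-neutrophil-like cells, and 0.185 and 0.193 in mature-neutrophil-like cells. The mature value was close to the B-lineage-like background of 0.171 [0.122 to 0.231] and 0.214 [0.171 to 0.265]. Progenitor-like cells had 1.06 [0.921 to 1.21] and 1.08 [0.923 to 1.25] and were positive in 63.0% and 56.7% of cells. Within monocyte-like cells Nkg7 lay mainly in cluster 9 (leading genes Itga1, Met and F13a1), at 1.11 [1.02 to 1.21] and 1.12 [1.01 to 1.24], against 0.220 and 0.236 in cluster 4 (leading genes Vcan, Ms4a8a and Ccr2). Basophil-or-mast-like cells had 2.22 [1.68 to 2.88] and 3.80 [3.18 to 4.51], in 34.0% and 40.0% of cells. Promyelocyte-like cells were 2.98% of MCAO cells and 1.34% of control cells, and they held 53.6% and 36.6% of all Nkg7 UMIs. NK-cell-like cells held 7.87% and 15.98% of Nkg7 UMIs.

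Ncr1 was likewise read mainly in NK-cell-like cells, which held 87.0% of its UMIs in the MCAO library and 77.8% in the control library. Its level there was 6.10 [5.08 to 7.25] UMIs per 10000 in the MCAO library, from 127 UMIs in 37 of 44 cells, and 6.57 [5.64 to 7.62] in the control library, from 175 UMIs in 37 of 39 cells. No single cell carried more than 9 UMIs in the MCAO library and 15 in the control library. T-cell-like cells had 5 UMIs in 3 cells and 8 UMIs in 3 cells.

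Klre1 was read at 7.01 [5.92 to 8.24] UMIs per 10000 in NK-cell-like cells of the MCAO library and 10.5 [9.29 to 11.8] in those of the control library. In T-cell-like cells it was 2.56 [2.04 to 3.16] and 2.21 [1.76 to 2.75]. NK-cell-like cells held 54.5% of Klre1 UMIs in the MCAO library and 67.9% in the control library, and T-cell-like cells held 31.3% and 20.2%.

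Klrd1, the neighbour of Klre1 in the genome, was read in dendritic cells as well. Its level in NK-cell-like cells was 8.64 [7.42 to 10.0] UMIs per 10000 in the MCAO library and 8.71 [7.63 to 9.91] in the control library. In T-cell-like cells it was 4.14 [3.47 to 4.90] and 3.98 [3.36 to 4.67]. Plasmacytoid-dendritic-like cells, the interferon-producing dendritic cells, had 1.87 [1.53 to 2.25] and 2.02 [1.65 to 2.44], in 61 of 116 MCAO cells and 49 of 114 control cells. Conventional-dendritic-like cells had 1.21 [0.909 to 1.58] and 1.33 [0.889 to 1.91], in 20 of 54 and 11 of 30 cells. The plasmacytoid level was 49.8 times [25.3 to 111.9] the B-lineage-like level in the MCAO library and 53.9 times [31.2 to 99.7] in the control library, and no plasmacytoid cell carried more than 5 of the 109 UMIs in the MCAO library and 14 of the 105 in the control library. Of B-lineage-like cells 1.06% and 1.08% had a Klrd1 UMI, and the median depth of plasmacytoid cells was 4732.5 and 4414.5 UMIs.

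The receptor chains that pair with Klrd1 were not read alongside it in plasmacytoid-dendritic-like cells. Klrc1 (NKG2A) and Klrc2 (NKG2C, chosen after its values were seen), which share a receptor with Klrd1, had 0 UMIs in these cells in both libraries, which allows levels of up to 0.0514 UMIs per 10000 in the MCAO library and 0.0576 in the control library (3 UMIs over the class). In NK-cell-like cells Klrc1 stood at 3.50 [2.75 to 4.41] and 3.42 [2.75 to 4.20] and Klrc2 at 1.87 and 1.58. Klre1 had 1 UMI in the plasmacytoid cells of the MCAO library and 0 in those of the control library. The adaptor gene Tyrobp (DAP12), which serves activating receptors of myeloid and NK cells, was read in them at 35.3 [33.7 to 36.8] and 33.5 [32.0 to 35.1].

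Ccl5 was split between the lymphocyte classes. NK-cell-like cells held 40.8% of its UMIs in the MCAO library and 32.9% in the control library, and T-cell-like cells held 43.2% and 53.2%. Its level in NK-cell-like cells was 56.7 [53.5 to 60.1] UMIs per 10000 in the MCAO library (1182 UMIs) and 28.5 [26.6 to 30.7] in the control library (760 UMIs). In T-cell-like cells it was 38.1 [36.02 to 40.3] (1252 UMIs) and 32.8 [31.01 to 34.7] (1230 UMIs). In B-lineage-like cells Ccl5 was read in 3.17% and 3.67% of cells, nearly always as 1 UMI, and in monocyte-like cells 113 UMIs in 91 of 895 MCAO cells and 85 UMIs in 56 of 594 control cells included top cells of 16 and 13 UMIs.

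Single NK-cell-like cells carried most of the set at once. The median cell had 7 of the 8 genes in both libraries, and 18 of 44 MCAO cells and 19 of 39 control cells had all 8. The median T-cell-like cell had 3 of the 8 in both libraries, 16 of 86 MCAO cells and 18 of 88 control cells had none, and the highest number was 7, in 1 cell of each library. Gzma, Gzmb and Prf1 were read together in 28 of 44 MCAO NK-cell-like cells (63.6% [47.8 to 77.6]) and 23 of 39 control ones (59.0% [42.1 to 74.4]). In T-cell-like cells the trio was together in 2 cells of each library, while 62 of 86 MCAO cells (72.1%) and 57 of 88 control cells (64.8%) had none of the trio. Ccl5 without any of the trio was read in 28 MCAO and 24 control T-cell-like cells, against 2 and 3 NK-cell-like cells. Klrd1 and Klre1 were read together in 28 of 44 MCAO NK-cell-like cells (63.6% [47.8 to 77.6]) and 32 of 39 control ones (82.1% [66.5 to 92.5]). Counts of genes per cell depend on depth. With each cell thinned to 1000 UMIs, which left out 1 control NK-cell-like cell, Gzma was read in 90.9% and 81.6% of NK-cell-like cells, against 93.2% and 92.3% at full depth. Prf1, the least detected after thinning, was then read in 40.9% and 31.6%, against 68.2% and 79.5%.

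**Figure D3:**
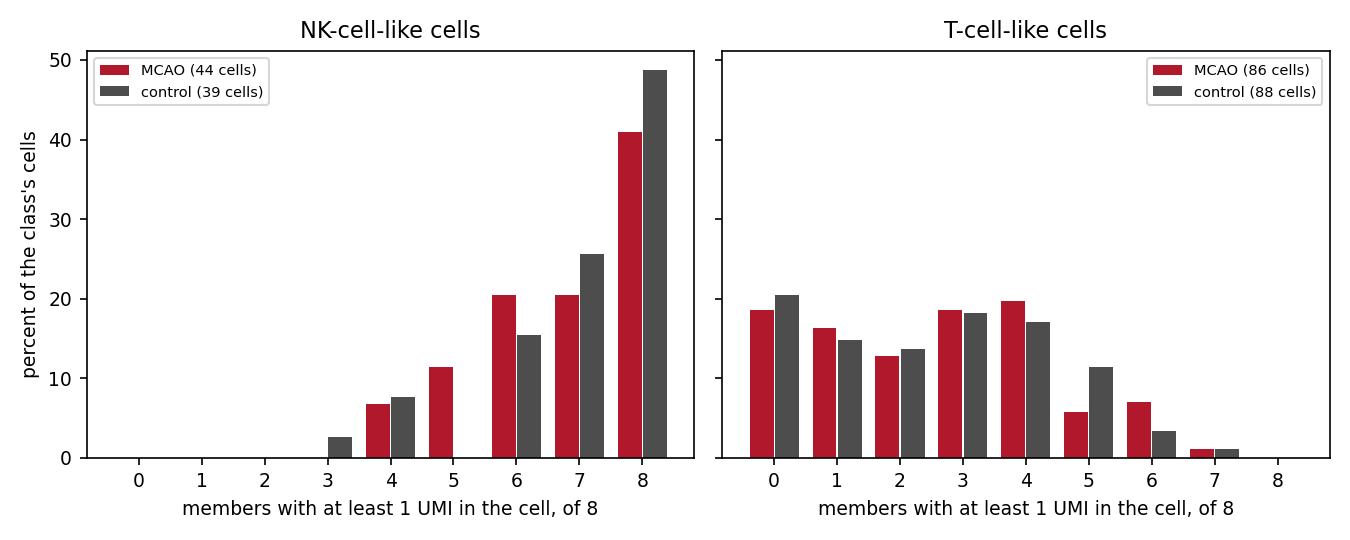
Percent of cells of each class (vertical axis) by the number of the 8 genes with at least 1 UMI in the cell (horizontal axis), with the MCAO library in red and the control library in grey. NK-cell-like cells peak at 8 genes (40.9% of MCAO cells and 48.7% of control cells), while T-cell-like cells spread from 0 to 7.

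T-cell-like cells were split by their coreceptor UMIs to see which of them carried the genes. Cells with a Cd8a or Cd8b1 UMI and no Cd4 UMI numbered 57 in the MCAO library and 54 in the control library, Cd4 cells numbered 8 and 11, and cells with neither 21 and 23. The Cd8 cells held 96 of 116 Gzmb UMIs in the MCAO library and 90 of 114 in the control library. They held 272 of 361 and 415 of 506 Nkg7 UMIs, and 927 of 1252 and 814 of 1230 Ccl5 UMIs. Of all UMIs of T-cell-like cells, Cd8 cells had 234303 of 328596 and 253064 of 374729. Their part of the Ccl5 UMIs was close to that in both libraries, so it does not set them apart. Cd4 cells, with 22922 and 31221 UMIs in all, held few. In the MCAO library they had 1 Nkg7 UMI and no UMI of the other 7 genes. In the control library they had 7 Gzmb UMIs in 1 cell, 3 of Nkg7 and 10 of Ccl5. For so few UMIs in all, that Gzmb count is not read as absence. The Cd4 cells are few, and a count of 0 allows levels of up to 1.31 and 0.961 UMIs per 10000 in them.

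Every Ncr1 UMI of T-cell-like cells lay in the cells with neither coreceptor, 5 in the MCAO library and 8 in the control library, while Cd8 cells had 0 in both, which allows up to 0.128 and 0.119 UMIs per 10000. These cells also held 43 of 84 and 42 of 83 Klre1 UMIs, at levels of 6.02 [4.36 to 8.12] and 4.64 [3.35 to 6.28] UMIs per 10000, against 1.75 [1.26 to 2.37] and 1.62 [1.16 to 2.20] in Cd8 cells. Most Klrd1 UMIs lay in Cd8 cells, 96 of 136 in the MCAO library and 93 of 149 in the control library. Per 10000 UMIs Klrd1 stood at 5.60 [4.004 to 7.63] and 6.19 [4.68 to 8.04] in cells with neither coreceptor, against 4.10 [3.32 to 5.00] and 3.68 [2.97 to 4.50] in Cd8 cells, with intervals that overlapped in the MCAO library and did not in the control library. Summed NK markers were 41.6 and 43.0 in these cells, against 20.1 and 14.0 in Cd8 cells. Their summed Cd3d, Cd3e and Cd3g level was 19.3 and 17.8, against 21.1 and 21.2 in Cd8 cells. Whether a coreceptor was missed for lack of depth was not tested.

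The comparison of stroke with control was made first in NK-cell-like cells. Ccl5 was 1.99 times [1.81 to 2.18] as high in the MCAO library, and Klre1 was 0.669 times [0.544 to 0.820] as high. In summed UMIs the granule genes barely differed: Gzma stood at 1.01 times [0.933 to 1.09], Gzmb at 0.990 times [0.811 to 1.21] and Nkg7 at 0.897 times [0.790 to 1.02] its control level. Klrd1 at 0.991 times [0.811 to 1.21] and Ncr1 at 0.927 times [0.732 to 1.17] were likewise within counting error. Prf1 stood at 1.25 times [0.935 to 1.68]. The median log2 ratio of the 8 genes was -0.01, against -0.03 over all 2045 genes with at least 50 UMIs in the class. Past 1.5-fold, 1 of the 8 genes was higher, Ccl5, where 8.46% of the 2045 genes were, and 0 were lower, where 11.5% were. With so large a share of genes past 1.5-fold in a class of this size, a single member beyond it is near the background count.

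**Figure D4:**
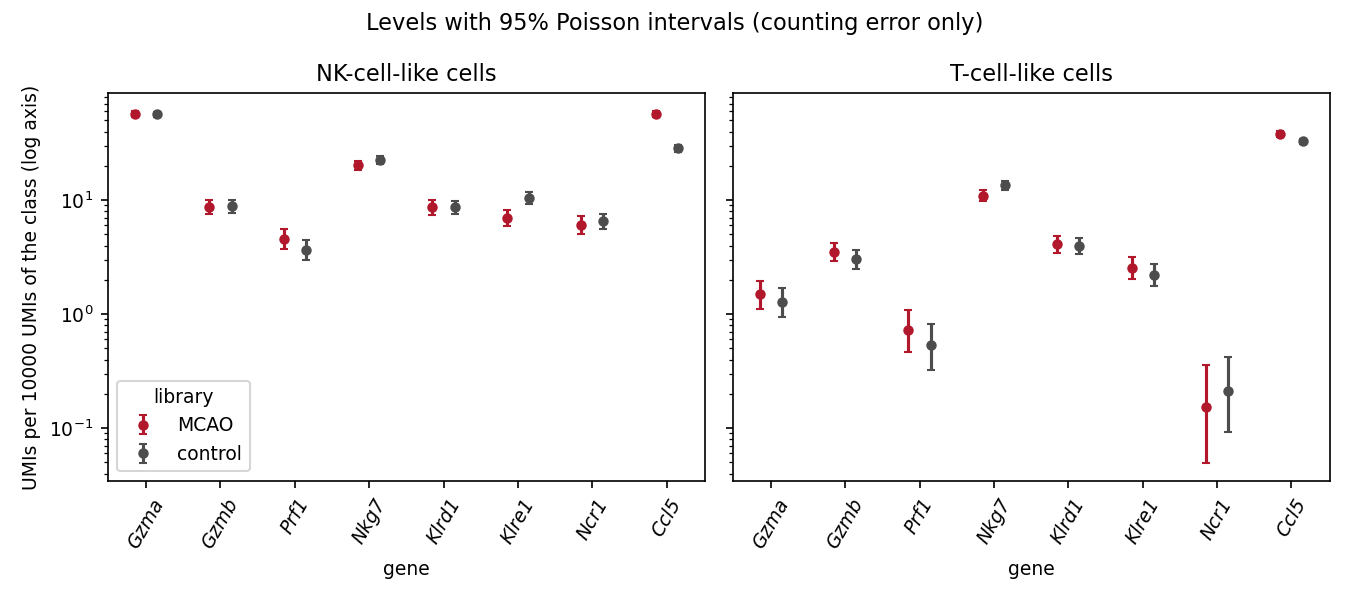
Levels of the 8 genes as UMIs per 10000 UMIs of the class (log axis) in NK-cell-like cells (left panel) and T-cell-like cells (right panel), with 95% Poisson intervals that cover counting error only; MCAO is red and control grey. In the left panel the intervals are clear of each other for Ccl5 (56.7 and 28.5) and Klre1 (7.01 and 10.5), and overlap for the other 6 genes.

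The Ccl5 difference was not carried by 1 cell. Per-cell Ccl5 values in NK-cell-like cells had a median of 72.7 UMIs per 10000 in the MCAO library, with quartiles of 38.7 and 132.5 and a top of 229.1, and a median of 31.8 in the control library, with quartiles of 10.1 and 68.3 and a top of 225.2. The groups overlapped over their whole range, and the middle of the MCAO cells lay above the upper quartile of the control cells. The share of cells with a Ccl5 UMI hardly differed, at 41 of 44 and 37 of 39. The deepest cells did not show the difference. In the MCAO library those of 19255, 14048, 12150 and 11519 UMIs had 0, 3, 0 and 0 Ccl5 UMIs. In the control library those of 21472, 19425, 16010 and 14982 UMIs had 26, 1, 39 and 6. The largest share held by 1 cell was 9.31% of the MCAO UMIs and 12.2% of the control UMIs. The log2 ratio of 0.99 ranged from 0.59 to 1.32 over 12 settings, the reported one included. Klre1 values had medians of 6.21 and 8.25 UMIs per 10000, with quartiles of 2.91 and 11.7 in the MCAO library and of 5.29 and 13.6 in the control library, and its log2 ratio of -0.58 ranged from -1.01 to -0.33. Prf1, at a log2 ratio of 0.32, passed 1.5-fold when each cell weighed the same (0.89) and when marked doublets were left out (0.68). The Gzma ratio near 1 also depended on the setting. Its log2 ratio of 0.01 was 0.36 when each cell weighed the same and 0.35 when marked doublets were left out. It was -0.29 with a gate on marker UMIs. Gzma per-cell medians were 62.2 and 50.4 UMIs per 10000 in the MCAO and control libraries.

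Signs of other cells stood beside these values. All 10 mature-neutrophil markers were read in NK-cell-like cells, at a summed 236.9 UMIs per 10000 in the MCAO library and 175.3 in the control library, and in T-cell-like cells at 167.7 and 123.8. The 10 B-cell markers summed to 4.27 and 7.44 in NK-cell-like cells, with 2 of them at 0 in the MCAO library. The part of other cells and of the depth gap between the NK-cell-like cells in these differences was not tested. With the B-lineage-like level subtracted, the log2 ratio was 0.99 for Ccl5 and -0.58 for Klre1.

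**Figure D5:**
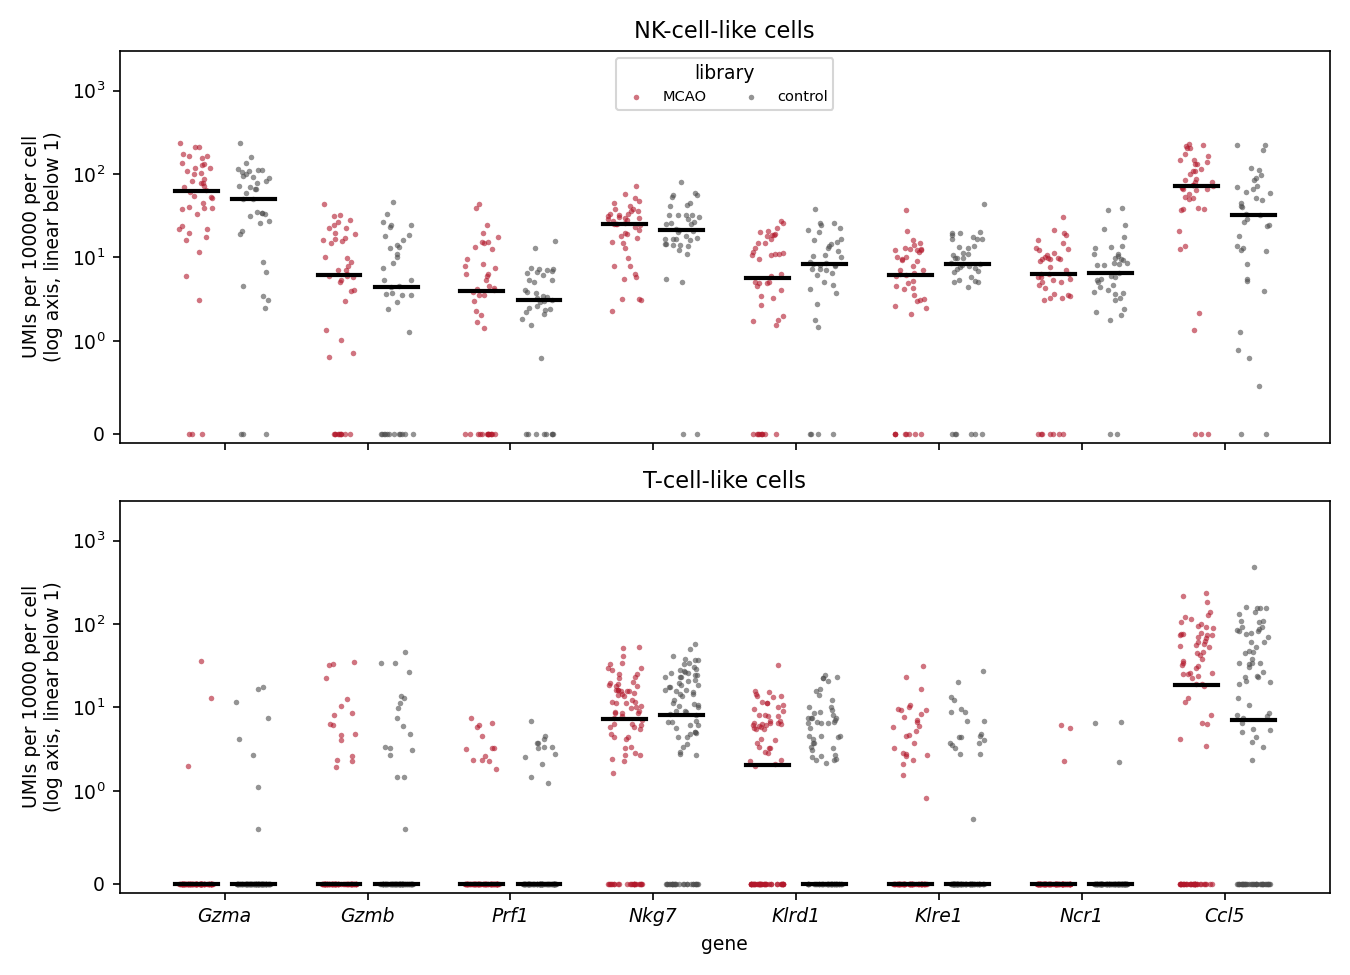
UMIs per 10000 of each of the 8 genes in single NK-cell-like cells (upper panel) and T-cell-like cells (lower panel), on a log axis that is linear below 1; each dot is a cell, black bars are medians, MCAO is red and control grey. In NK-cell-like cells the Ccl5 median is 72.7 in the MCAO library and 31.8 in the control library, and in T-cell-like cells most dots of Gzma and Ncr1 lie at 0.

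In T-cell-like cells no member differed by 1.5-fold among the 6 with at least 50 UMIs, where 6.94% of 3040 genes were higher and 10.4% lower; Prf1 and Ncr1, with 44 and 13 UMIs over both libraries, were under that minimum. Nkg7 was lower in the MCAO library, at 0.814 times [0.709 to 0.933], and Ccl5 higher, at 1.16 times [1.07 to 1.26], both beyond counting error. Among Cd8 cells alone the Nkg7 levels were 11.6 [10.3 to 13.1] and 16.4 [14.9 to 18.1] UMIs per 10000, and among cells with neither coreceptor 12.3 [9.89 to 15.2] and 9.73 [7.80 to 11.99]. The Ccl5 difference was lost under 2 settings: its log2 ratio of 0.21 was 0.0035 when each cell weighed the same, with per-cell means of 36.7 and 36.6 UMIs per 10000, and 0.0079 with a gate on marker UMIs. Ccl5 per-cell medians were 18.5 and 7.05 UMIs per 10000, and 51 of 86 and 52 of 88 cells had a UMI. Gzma at 1.16 times [0.766 to 1.77], Gzmb at 1.16 times [0.888 to 1.52], Klrd1 at 1.04 times [0.819 to 1.32] and Klre1 at 1.15 times [0.842 to 1.58] were within counting error. The Gzma ratio rested on 3 MCAO cells and 8 control cells. Without the top cell of each library its log2 ratio was -0.87 in place of 0.22. The median log2 ratio of the 8 was 0.21, against -0.02 over all genes compared. The difference between the Ccl5 ratios of the classes was not tested.

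NK-cell-like cells were set against T-cell-like cells within each library. Gzma was 38.3 times [28.8 to 52.1] and Ncr1 40.1 times [16.7 to 125.5] as high in NK-cell-like cells of the MCAO library, and 44.2 times [33.2 to 60.3] and 30.8 times [15.3 to 72.4] in the control library. Prf1 stood at 6.31 times [3.999 to 10.3] and 6.90 times [4.23 to 11.8]. Gzmb, at 2.47 times [1.95 to 3.15] and 2.90 times [2.31 to 3.66], Klrd1, at 2.09 times [1.66 to 2.63] and 2.19 times [1.78 to 2.71], and Nkg7, at 1.84 times [1.60 to 2.13] and 1.67 times [1.48 to 1.89], separated the classes less. Klre1 was 2.74 times [2.08 to 3.63] as high in the MCAO library and 4.73 times [3.69 to 6.12] in the control library. Ccl5 took opposite directions: it was 1.49 times [1.37 to 1.61] as high in NK-cell-like cells of the MCAO library and 0.870 times [0.793 to 0.953] in those of the control library. When each cell weighed the same, the control log2 ratio was 0.46 in place of -0.20, so its direction depends on how cells are weighed. The median log2 ratio of the 8 genes was 1.37 in the MCAO library and 1.88 in the control library.

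Lists of genes that work with the members were read in the same classes. The counts in NK-cell-like cells stand beside 8.46% of all 2045 genes higher and 11.5% lower. None of the 5 granule packing and granzyme activation genes with at least 50 UMIs passed 1.5-fold in NK-cell-like cells (median log2 ratio -0.32, with -0.03 over all genes), nor did any of the 3 such granule release genes (0.15). Srgn, the proteoglycan core that holds granzymes in the granule, stood at 7.39 and 9.13 UMIs per 10000 in the MCAO and control libraries, and Ctsw, a cathepsin of killer cells, at 4.75 and 3.23. Coro1a, an actin regulator needed for degranulation, stood at 12.4 and 12.2. Of the 4 granzyme inhibitor genes with enough UMIs 1 was past 1.5-fold: Serpinb9b stood at 1.64 times [0.939 to 2.88] its control level, an interval that includes 1, and had 32 and 25 UMIs in NK-cell-like cells and 0 in T-cell-like cells of both libraries. Serpinb9, the inhibitor of granzyme B, stood at 6.14 and 7.06 in NK-cell-like cells, 4.69 and 5.63 times its T-cell-like levels. Of the other granzymes, Gzmk and Gzmm had 5 or fewer and 7 or fewer UMIs in NK-cell-like cells of either library. The other 6 listed were not found by name among the 25943 genes.

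The activating receptor list moved both ways. Of its 8 genes with at least 50 UMIs in NK-cell-like cells, 2 were higher in the MCAO library, Klra8 (Ly49H) at 1.64 times [1.30 to 2.08] and Klri2 at 1.83 times [1.43 to 2.34], and 3 were lower, Klra4 at 0.634 times [0.471 to 0.847], Cd244 at 0.522 times [0.294 to 0.894] and Klrb1f at 0.622 times [0.405 to 0.938]; the 3 lower ones were named after their values were seen. Klra4 was read in 13 of 44 MCAO cells and 13 of 39 control cells. Its top cell held 22 of 72 UMIs in the MCAO library and 46 of 145 in the control library. The median log2 ratio of the list was 0.04. Klri2 encodes a partner chain of Klre1, and it was read in 31 of 44 MCAO cells and 21 of 39 control cells, against 36 and 33 for Klre1. Klra genes are near-identical copies whose reads the counting could split, so their single values are uncertain. None of the 5 inhibitory receptor genes passed 1.5-fold, and Klra7 (Ly49G) stood at 6.48 and 6.16 UMIs per 10000. In the same cells the Klre1 ratio lay below 1 and the Klri2 ratio above it.

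Of 10 adaptor and signalling genes 2 were higher and 1 lower, where 8.46% and 11.5% of all genes were: Sh2d1a, Lcp2 at 1.53 times [0.921 to 2.54] and Syk at 0.537 times [0.306 to 0.910], all chosen after their values were seen. Tyrobp stood at 20.6 and 19.2 UMIs per 10000 and Fcer1g, another adaptor of activating receptors, at 21.3 and 21.0; Sh2d1a (SAP) was at 1.92 times [1.14 to 3.28], from 39 and 26 UMIs. Among the other chemokines Ccl4 had 115 UMIs in MCAO NK-cell-like cells and 13 in control ones, but 105 of the 115 lay in 1 cell. Ccl3 had 43 and 47 UMIs, also with over 50% in 1 cell of each library, and Xcl1 stood at 4.56 and 3.16 UMIs per 10000. Of 10 transcription factor genes 2 were higher, Runx3 and Irf2, and 0 lower, against the same 8.46% and 11.5% of all genes. Eomes, which NK cells need to mature, stood at 4.61 and 4.47, and Runx3 at 3.79 and 2.52, and Irf2, chosen after its values were seen, was at 1.70 times [1.14 to 2.57]. In T-cell-like cells 2 of 4 activating receptor genes were higher in the MCAO library, Klrk1 (NKG2D) at 1.79 times [1.34 to 2.42] and Klrb1c (NK1.1) at 1.94 times [1.34 to 2.85], and the other 2 were lower, Cd226 at 0.607 times [0.358 to 1.01] and Slamf7 at 0.494 times [0.299 to 0.795], both chosen after their values were seen. Of 5 inhibitory receptor genes 1 was higher, Klrc1 at 1.80 times [1.31 to 2.48], and 1 lower, Klra7 at 0.610 times [0.440 to 0.840]. Of 2 chemokine and cytokine genes Xcl1 was lower, at 0.517 times [0.382 to 0.693]. Over all 3040 genes compared in this class 6.94% were higher and 10.4% lower.

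The genes whose levels over the 32 class and library points were most like those of each member were mostly other lymphocyte genes. On log2(UMIs per 10000 + 0.02), Pearson's r was 0.95 between Gzma and Klrb1a, 0.97 between Prf1 and Eomes, 0.94 between Gzmb and Sytl2, 0.97 between Klre1 and Klra9 and 0.98 between Ccl5 and Tnfrsf9. Ncr1 had its closest match in Gzma, at 0.93. Among the genes most like Klrd1 was Cxcr3, a chemokine receptor gene, at 0.92. Nkg7 was closest to Cst7, the gene of cystatin F, an inhibitor of granule proteases, at 0.89, and its r with the other members was lowest with Klrd1, at 0.39. The points share 2 libraries and their free RNA, and the 16 classes differ in depth, so these values describe likeness of pattern alone.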

How the data were processed

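Single-cell libraries of the BD Rhapsody type (1 MCAO, 1 control) were deposited as 1 table of normalized values, which the authors had on a natural log scale: ln(1 + 10000 × the fraction of a cell's UMIs that a gene takes), as the values show. Per the submitters' processing notes, fastp, STAR, UMI-tools, Seurat 4.0.6 and build mm10 were used. Whole UMIs were recovered from 100% of values above 0 (tolerance 0.01 UMIs). Cells were assigned by the start of their names, translated from the Mandarin words for control and stroke; 0 columns were unmapped. Clusters (2000 variable genes, 30 components, 20 neighbours, Leiden resolution 1, giving 27) and their names left the 8 genes out. A simulation-based doublet score marked 3.32% of MCAO cells and 1.30% of control cells; marked cells were kept, and left out as an alternative. UMIs were summed per class and library, with exact Poisson and Clopper-Pearson intervals, a pseudocount of 0.02 on the log2 scale and a floor of 3 UMIs. Ratios carry exact intervals of a binomial split. They were tested on data simulated with counting error alone, which cannot show how they hold when UMIs are uneven between cells. Genes past 1.5-fold with at least 50 UMIs were counted. With 1 library per group no significance test was possible. The 8 genes and the 13 lists were chosen with earlier results of these data known. The text names the 8 genes, up to 4 genes per list with the most NK-cell-like UMIs and the 3 genes most alike in pattern to each member; any further gene is marked where it appears. 1 gene that this selection names is not reported here. Alternatives changed the clustering, the class definition, doublets, depth, weighting, scaling, background, pseudocount and minimum count. Python 3.11.15, numpy 2.4.6, pandas 2.3.3, scipy 1.17.1, scikit-learn 1.9.0, python-igraph 0.11.9, leidenalg 0.10.2 and matplotlib 3.10.9 were used.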

Additional observations from a re-analysis of the deposited data

How the results depend on the processing

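No paired analysis was possible because each condition has 1 library. Setting MCAO against control in NK-cell-like cells, 75 of the values recomputed for single genes stayed within counting error of those reported and 13 moved; in T-cell-like cells 92 stayed and 4 moved. Setting NK-cell-like against T-cell-like cells, 70 stayed, 12 moved and 6 changed direction in the MCAO library. In the control library 76 stayed, 7 moved and 5 changed direction. The values that stayed are not all separate checks. Leiden resolution 2 gave values identical to those reported. The changes of scaling, background and pseudocount reused the same summed UMIs. Leaving out each gene's top cell and using CD8 T-cell-like cells alone were added after seeing the data. The largest changes came with a gate on marker UMIs in place of clusters. That gate took 3.71% of MCAO cells and 3.63% of control cells as NK-cell-like, of which 19.5% and 18.5% were in the NK-cell-like cluster and 57.5% and 57.7% were monocyte-like, and 2.15% of MCAO cells as T-cell-like. With the gate the median log2 ratio of the 8 genes in NK-cell-like cells, MCAO over control, was -0.31. NK-cell-like over T-cell-like, the median was then -1.36 in the MCAO library and -0.80 in the control library. In the MCAO library the gate gave -1.43 for Gzmb, -0.090 for Prf1, -1.29 for Nkg7, -1.64 for Klrd1, -1.73 for Klre1 and -2.37 for Ccl5, and in the control library -1.02 for Gzmb, -1.48 for Nkg7, -1.44 for Klrd1 and -0.58 for Klre1. When each cell weighed the same, the MCAO median was 1.90 and the control Ccl5 ratio 0.46. With a minimum of 20 UMIs, 713 genes were higher and 810 lower in NK-cell-like cells, and 708 higher and 948 lower in T-cell-like cells. Depth limits Prf1 and Ncr1 in T-cell-like cells, and all shares of cells with a UMI.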
